A study of Mus musculus with 12 samples.

Results

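The collagen genes were examined in chromatin profiles of mouse embryonic fibroblasts, connective tissue cells cultured from embryos. Members were the protein-coding genes whose symbols are Col, a type number, the letter a and a chain number, which gave 44 of 21631 protein-coding genes on chromosomes 1 to 19 and X. They were grouped as fibrillar (11 genes of types 1, 2, 3, 5, 11, 24 and 27), basement membrane (6 genes of type 4), type 6 (6 genes) and other (21 genes). They lie on 15 chromosomes, with a median length of 114 kb against 17.3 kb for all protein-coding genes.

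The cells were either knocked out for Fbxw7 (KO), the F-box protein that picks the substrates of an SCF ubiquitin ligase, or wild type (WT). Cells of both genotypes were grown in DMEM with serum and non-essential amino acids, and the labels give neither the deleted part of Fbxw7 nor the driver of the deletion. Cut & Run, which sequences DNA cut free by a nuclease tethered to an antibody on chromatin, was run for H3K4me3, H3K4me1 and MLL4, with 2 libraries per antibody and genotype. Whether the 2 libraries stem from separate cultures or embryos is not stated, so a p-value reflects only how these libraries vary, which may be technical. Peak lists hold no measure of Fbxw7 transcript or protein, so the genotype rests on the labels.

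Collagens are trimeric proteins of the extracellular matrix, built from chains that wind into a triple helix and assemble into fibrils, networks or beaded filaments. Fibroblasts are their main source in connective tissue, and types 1, 3 and 5 co-assemble into its fibrils. H3K4me3 is deposited around the start sites of active genes, and H3K4me1, a product of MLL4 (Kmt2d) among other enzymes, is common at enhancers and at the flanks of active promoters.

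Libraries held 5519477 to 11319701 fragments for H3K4me3, 11604131 to 13627038 for H3K4me1 and 4435103 to 5838305 for MLL4. H3K4me3 lists numbered 10397 and 11281 peaks in KO libraries, against 17460 and 16078 in WT libraries, and their median peak was 540 and 579 bp long in KO, against 1218 and 1054 bp in WT. WT replicate 1 stood apart in H3K4me3 depth, with 11319701 fragments, while KO replicate 2 (5938102) and WT replicate 2 (6185767) were close. Peak pileup on chromosome 10, which holds 5 collagen genes (Col6a1, Col6a2, Col10a1, Col13a1 and Col18a1), was 1.20 and 1.24 times that of the other autosomes in KO H3K4me3 libraries, against 0.981 and 1.00 times in WT. For H3K4me1 it was 1.16 and 1.16 times in KO, against 1.01 and 1.00 times in WT. All 10 fibroblast markers had an H3K4me3 peak in at least 1 library, 6 of them in all 4 libraries, with Pdgfra and Lum peaks in both WT and neither KO library. Of chondrocyte markers 2 of 8 had one, Sox9 in all 4 libraries and Hapln1 in both WT and neither KO library. Acan, Comp, Matn1, Matn3, Chad and Cnmd had none. Of endothelial, epithelial and haematopoietic markers 1 of 5 each had one (Kdr, Epcam and Spi1). Of all 21631 genes, 13276 had one. H3K4me1 was called at 8 of 10 fibroblast markers (not at Vim and Twist1) and 3 of 8 chondrocyte markers. It was called at 4 of 5 endothelial, 2 of 5 epithelial and 2 of 5 haematopoietic markers.

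RefSeq promoters of the mouse build GRCm38.p6, whose coordinates are those of the authors' mm10, were matched for 35 of the 44 collagen genes. The 6 shown here cover chains of the main fibrils (Col1a2, Col3a1), chains of the beaded filament with H3K4me3 in every library (Col6a1, Col6a3), a CpG-rich fibrillar chain (Col5a1) and a CpG-rich gene without H3K4me3 (Col13a1). Each is the 250 bases before the start site, with CpG dinucleotides in capitals. They lie at chr6:4505368-4505617, plus strand, chr1:45311288-45311537, plus strand, chr10:76726045-76726294, minus strand, chr1:90843972-90844221, minus strand, chr2:27886175-27886424, plus strand, and chr10:61979109-61979358, minus strand, in that order.
Col1a2: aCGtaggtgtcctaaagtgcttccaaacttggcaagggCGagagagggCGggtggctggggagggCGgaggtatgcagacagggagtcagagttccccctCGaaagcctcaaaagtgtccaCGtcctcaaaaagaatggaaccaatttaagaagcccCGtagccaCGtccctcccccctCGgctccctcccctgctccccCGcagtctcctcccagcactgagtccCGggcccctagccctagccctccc
Col3a1: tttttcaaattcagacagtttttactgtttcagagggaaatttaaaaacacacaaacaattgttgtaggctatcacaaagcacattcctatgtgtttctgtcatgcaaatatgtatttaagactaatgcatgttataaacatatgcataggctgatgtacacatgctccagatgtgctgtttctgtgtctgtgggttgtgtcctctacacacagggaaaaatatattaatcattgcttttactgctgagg
Col6a1: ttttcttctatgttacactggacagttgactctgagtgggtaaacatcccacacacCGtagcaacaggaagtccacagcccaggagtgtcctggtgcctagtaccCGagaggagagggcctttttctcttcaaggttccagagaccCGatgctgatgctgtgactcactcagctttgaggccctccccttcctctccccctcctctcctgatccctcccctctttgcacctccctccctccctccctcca
Col6a3: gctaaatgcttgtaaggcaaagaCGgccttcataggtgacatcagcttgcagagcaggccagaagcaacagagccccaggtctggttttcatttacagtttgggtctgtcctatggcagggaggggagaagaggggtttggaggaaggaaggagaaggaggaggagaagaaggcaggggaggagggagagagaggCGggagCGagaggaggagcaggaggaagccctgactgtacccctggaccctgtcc
Col5a1: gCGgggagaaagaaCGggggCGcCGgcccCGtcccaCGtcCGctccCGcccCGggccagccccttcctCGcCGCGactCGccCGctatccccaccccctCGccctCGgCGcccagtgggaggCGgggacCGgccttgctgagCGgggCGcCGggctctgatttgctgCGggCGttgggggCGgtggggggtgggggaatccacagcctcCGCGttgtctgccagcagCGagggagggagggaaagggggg
Col13a1: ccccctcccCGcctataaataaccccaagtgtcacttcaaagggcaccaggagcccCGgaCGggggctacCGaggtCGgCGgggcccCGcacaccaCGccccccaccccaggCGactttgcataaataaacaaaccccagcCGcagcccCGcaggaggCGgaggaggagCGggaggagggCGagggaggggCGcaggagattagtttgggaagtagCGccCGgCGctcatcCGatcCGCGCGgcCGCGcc

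The 6 sequences hold 11 CpG (Col1a2), 0 (Col3a1), 3 (Col6a1), 3 (Col6a3), 28 (Col5a1) and 24 (Col13a1). Both strands were searched for the TATA box letters TATAAA, for the GC box letters GGGCGG and for the CCAAT box, and a match is given by the distance of its first printed base from the start site. Col3a1 and Col13a1 hold 1 TATAAA each, 117 and 237 bases before the start. Col1a2 holds CCAAT at 109 bases and GGGCGG, which itself contains a CpG, at 205 and 188 bases, and Col5a1 holds GGGCGG at 205 and 73 bases. Col6a1 and Col6a3 hold none of the 3 motifs in these 250 bases.

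A gene was scored by the bases of its span plus 1 kb at each side that were covered by peaks of a library. KO and WT were then compared for H3K4me3, a comparison that asks whether the mark differs over collagen genes with loss of Fbxw7. H3K4me3 was called in at least 1 library at 9 of 11 fibrillar, 3 of 6 basement membrane and 3 of 6 type 6 genes and at 11 of 21 other genes, with shorter KO peaks, or none, wherever both WT libraries had one. Of all 21631 protein-coding genes, 13276 had a peak in at least 1 library. A peak was present over 16 and 15 collagen genes in KO libraries, against 26 and 24 in WT libraries. These are 36.4% and 34.1% of collagen genes in KO, against 45.1% and 47.7% of all genes. In WT they are 59.1% and 54.5%, against 61.1% and 58.7% of all genes. Covered length summed to 11.8 and 11.8 kb in KO, against 48.7 and 36.3 kb in WT, or 11.8 ± 0.00636 kb in KO and 42.5 ± 8.72 kb in WT (SD, n = 2 each), a ratio of 0.278. In the libraries of similar depth it was 11.8 kb in KO replicate 2 and 36.3 kb in WT replicate 2. These sums count a region shared by Col4a1 and Col4a2 at both genes. A sum over peaks called library by library moves with how much of the genome each list covers, and the lists covered 6.25 and 7.25 Mb in KO, against 22.0 and 17.6 Mb in WT.

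Covered bases were lower in both KO than in both WT libraries at 24 of 44 collagen genes (54.5%), against 57.4% of all protein-coding genes, a share near the background. They were higher in both KO libraries at 0 collagen genes, against 0.0185% of all genes. Among the 13 collagen genes with a peak in all 4 libraries the KO values were the lower ones at 13, against 98% of all genes with a peak in all 4. The median KO over WT ratio of covered bases in those 13 genes was 0.413 (log2 -1.27), against 0.460 (log2 -1.12) in all such genes. These ratios lay close together, and the difference between them was not tested. For a single gene the exact two-sided permutation test over 6 assignments of the libraries cannot give a p below 0.333, which 24 collagen genes reached for H3K4me3 and 22 for H3K4me1, so no single difference passes 0.05.

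**Figure D1:**
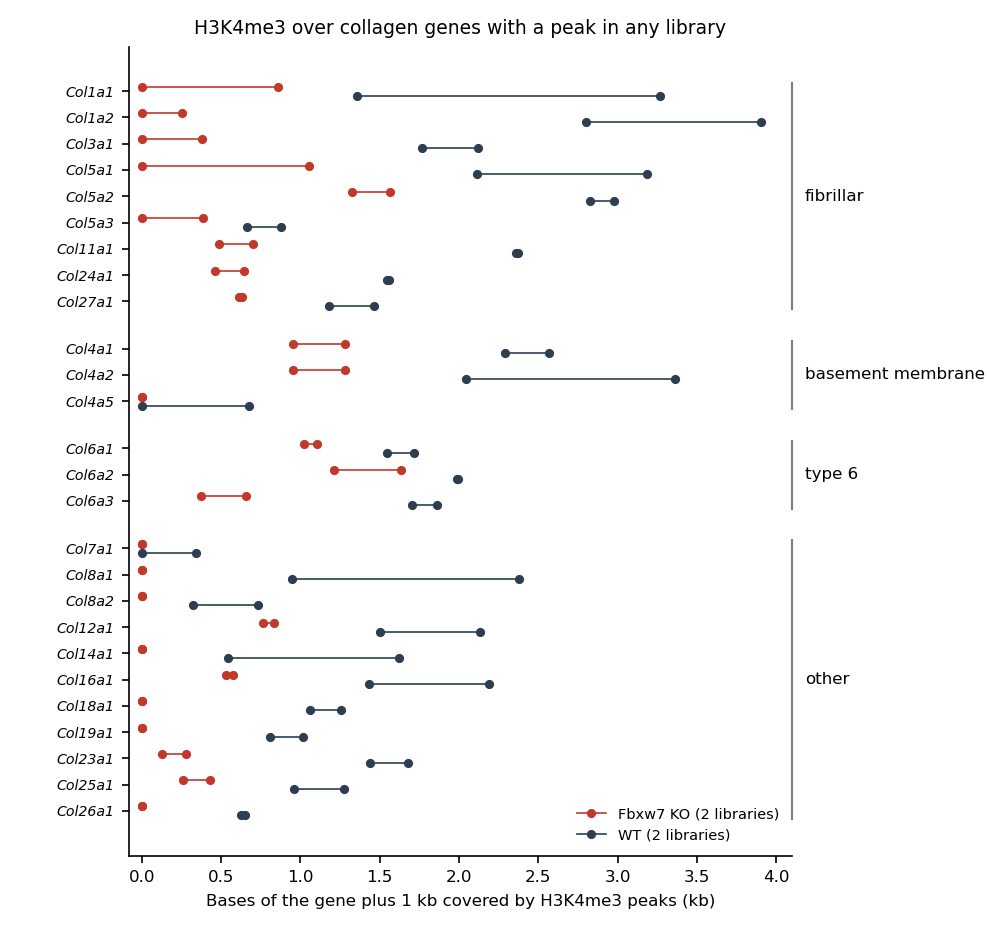
H3K4me3 over the 26 collagen genes with a peak in any library. Each point is a library, in bases (kb) of the gene plus 1 kb covered by peaks, with KO above WT in each row and genes grouped by class; KO points lie left of WT points at 24 genes and tie at 0 with a WT library at Col4a5 and Col7a1.

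Summed over its genes, the fibrillar class had 4.69 ± 0.221 kb of H3K4me3 in KO and 19.2 ± 3.59 kb in WT (SD, n = 2 each), over 11 genes. Basement membrane genes had 2.23 ± 0.461 kb in KO and 5.47 ± 1.21 kb in WT, over 6 genes. A region shared by Col4a1 and Col4a2 is counted at both genes, and it makes up all of this class's KO sum. Type 6 genes had 3.01 ± 0.556 kb in KO and 5.41 ± 0.233 kb in WT, and the 21 other genes had 1.90 ± 0.309 kb in KO and 12.5 ± 3.68 kb in WT. The ratio of KO over WT was 0.556 for type 6, 0.408 for basement membrane, 0.245 for fibrillar and 0.153 for the other genes, an order that was not tested. Within type 6 it was 0.653 at Col6a1 and 0.715 at Col6a2, both on chromosome 10, where KO pileup was higher. At Col6a3, on chromosome 1, it was 0.288. Col18a1, of the other genes, also lies on chromosome 10, and the part of that pileup in the class ratios was not tested.

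Type 1 collagen, the main fibril of skin, tendon and bone, is built from Col1a1 and Col1a2 chains. Col1a1 had 860 and 0 bp of H3K4me3 in KO libraries, against 3266 and 1356 bp in WT libraries. Col1a2 had 252 and 0 bp in KO, against 3905 and 2799 bp in WT. KO replicate 2 had no peak at either gene, and the groups did not overlap. The WT signal at Col1a2 ran from 113 to 4017 bp after the start site, and the single KO peak from 2919 to 3170 bp.

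Type 3 collagen, the partner of type 1 in extensible tissues, is a trimer of Col3a1, which had 0 and 381 bp in KO libraries, against 2118 and 1768 bp in WT libraries. A further WT-only stretch of Col3a1 lay 1785 to 2473 bp after the start. Only 1 KO library had a peak, and the groups did not overlap.

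Type 5 chains set the diameter of type 1 fibrils. Col5a1 had 0 and 1057 bp in KO, against 3186 and 2114 bp in WT. Col5a2 had 1568 and 1324 bp in KO, against 2976 and 2827 bp in WT, the most covered bases of any collagen gene when averaged over the 4 libraries (2174 bp). Col5a3 had 385 and 0 bp in KO, against 879 and 662 bp in WT. The 3 genes each had non-overlapping groups, and Col5a2 alone of them had a peak in every library. The cartilage chain Col11a1, which also pairs with type 5 chains, had 704 and 489 bp in KO, against 2372 and 2362 bp in WT, again without overlap.

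Type 6 collagen forms beaded filaments between the cell and the fibrils. Col6a1 had 1105 and 1026 bp in KO, against 1716 and 1549 bp in WT. Col6a2, its neighbour on chromosome 10, had 1637 and 1214 bp in KO, against 1997 and 1991 bp in WT. Col6a3, the longest chain of the filament, had 656 and 372 bp in KO, against 1861 and 1704 bp in WT. These 3 chains had a peak in every library with non-overlapping groups, and the alternative chains Col6a4, Col6a5 and Col6a6 had none in any library. Col6a1 and Col6a2 lie on the chromosome whose pileup differed between KO and WT, and the part of that difference in their values was not tested.

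The basement membrane network of most tissues is built from Col4a1 and Col4a2, which are transcribed in opposite directions from a shared promoter. One region, at chr8:11311563-11313863, held both starts and covered 954 and 1280 bp in KO, against 2292 and 2287 bp in WT. Over the whole of each gene Col4a1 had 954 and 1280 bp in KO, against 2292 and 2567 bp in WT, and Col4a2 had 954 and 1280 bp in KO, against 3360 and 2045 bp in WT. The groups did not overlap at either gene, and the values are not independent, since the region is shared. Col4a5, a chain of kidney and eye basement membranes, had a peak in WT replicate 1 alone, and Col4a3, Col4a4 and Col4a6 had none.

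**Figure D2:**
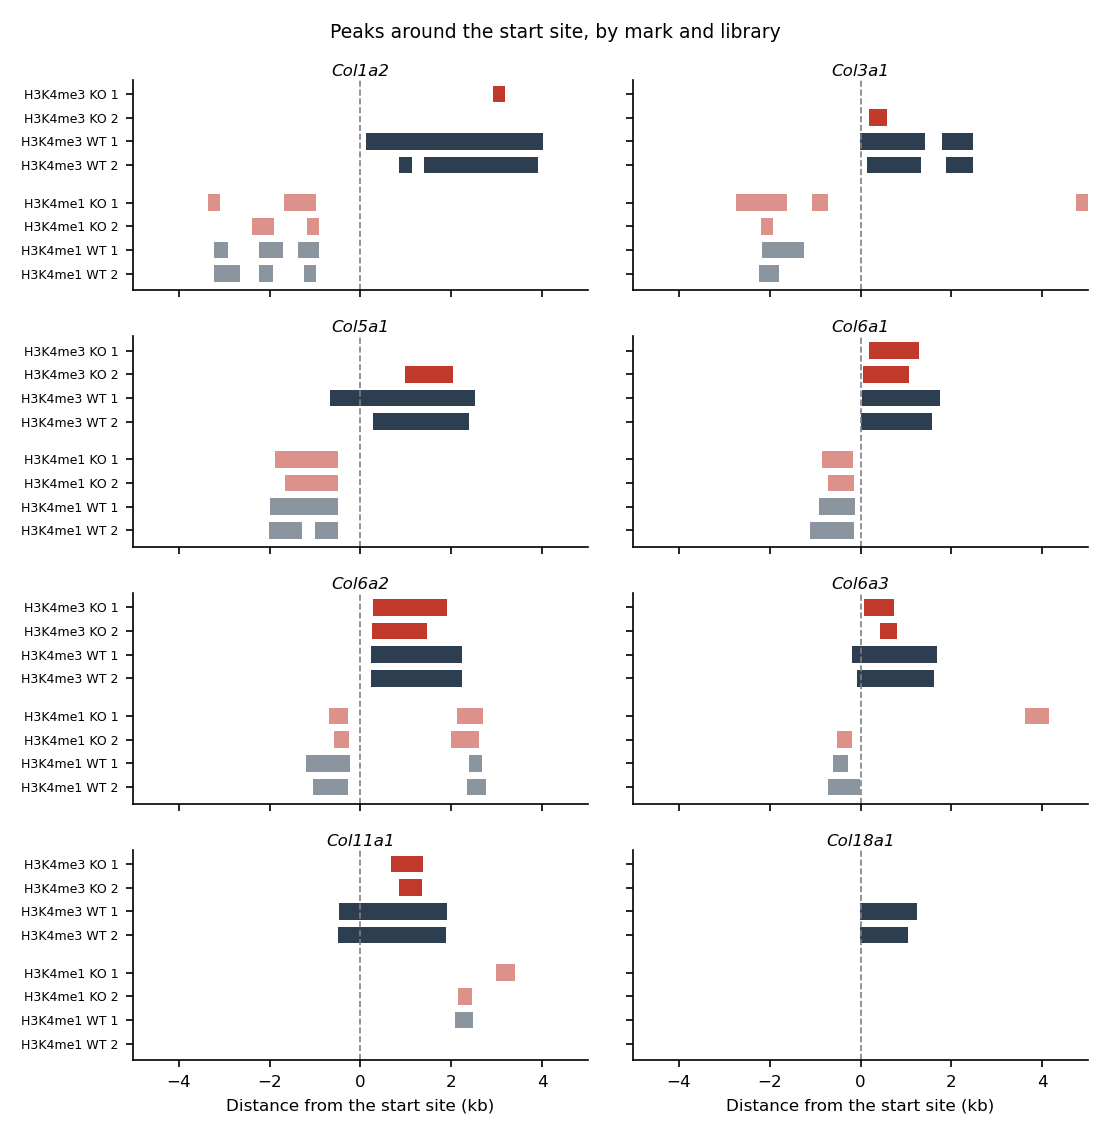
Peaks within 5 kb of the start site of 8 collagen genes, by mark and library, with positive distances (kb) in the direction of transcription. In each panel the KO rows stand above the WT rows, H3K4me3 above H3K4me1. H3K4me3 lies mostly at or after the start. H3K4me1 lies only after it at Col11a1, on both sides of it at Col6a2 in every library, and mostly before it elsewhere. In KO replicate 1, H3K4me1 also lies after the start at Col3a1 and only after it at Col6a3. Col18a1 has H3K4me3 in WT libraries only and no H3K4me1 in its panel.

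Position was read for the 35 genes with a RefSeq start site. Of these, 21 had an H3K4me3 region, 15 of them over the start site and 20 within 1 kb of it, the exception being Col8a2. The centre of the region lay after the start at 18 of the 20 and before it at 2, with a median of 0.502 kb after it. The Col6a1 region spanned 20 to 1740 bp after the start and the Col6a2 region 233 to 2229 bp. Within 1 kb of the start site 5 genes (Col1a2, Col8a1, Col18a1, Col19a1 and Col23a1) had peaks in both WT and neither KO library, 14.3% of 35, against 7.85% of all 17274 genes with a start site. Peaks in all 4 libraries were found there at 10 genes (28.6%), against 37.2% of all genes.

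Over the gene plus 1 kb, 13 collagen genes (29.5%) had H3K4me3 in all 4 libraries, against 41.8% of all genes and 48.8% of the 2028 genes at least as long as the median collagen gene. Col23a1 is among the 13 only by a region near Phykpl, 294147 bp after its start, while at its own start it had 0 and 0 bp in KO, against 818 and 580 bp in WT. Without peaks near other genes, 12 collagen genes had H3K4me3 in all 4 libraries, and 7 were WT-only. No peak in any library was found at 18 (40.9%), against 38.6% of all genes and 17.8% of the long ones. Peaks in both WT and neither KO library, called WT-only, occurred at 6 (13.6%), against 7.73% of all genes and 13.5% of the long ones. The converse pattern occurred at 0 collagen genes and 0% of all genes. The WT-only share lay beside that of the long genes and is not read as a result about collagen genes. The long genes had a median length of 196 kb, against 114 kb for collagen genes. Of the 26 collagen genes with a peak in any library, 6 were WT-only, against 12.6% of all genes with a peak. That difference was not tested. The remaining 7 genes (15.9%, against 11.8% of all) had peaks in 1 to 3 libraries in no genotype pattern.

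**Figure D3:**
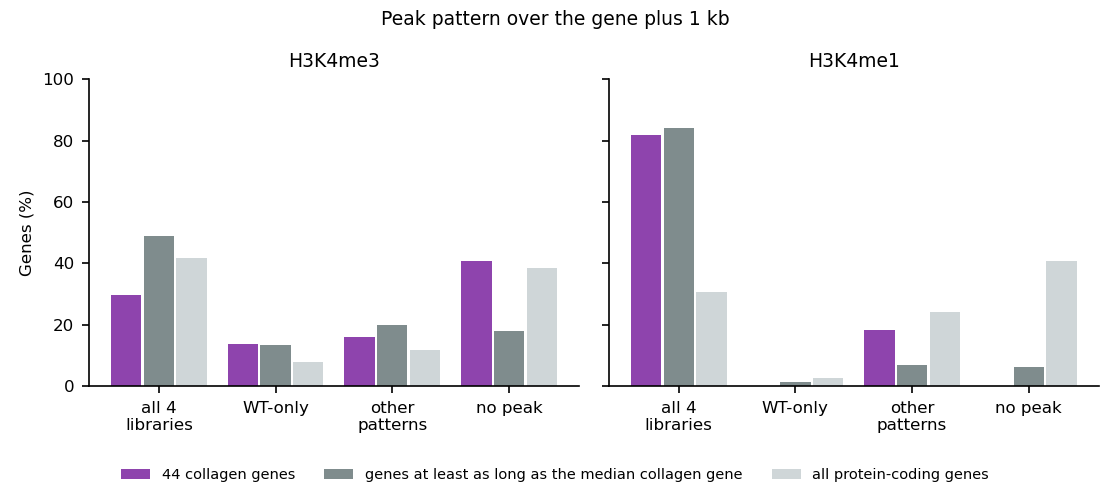
Share (%) of collagen genes, of genes at least as long as their median and of all protein-coding genes by peak pattern, for H3K4me3 (left) and H3K4me1 (right). For H3K4me3, WT-only genes make up 13.6% of collagen genes and 13.5% of long genes; for H3K4me1, peaks in all 4 libraries occur at 81.8% of collagen genes and 84.2% of long genes.

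Scored over the gene plus 1 kb, the WT-only genes were chains outside the main fibrils. This depends on the window, since Col1a2 and Col5a1 were WT-only when scored within 1 kb of the gene ends. Col8a1 and Col8a2 encode the short-chain collagen of vessel walls and of the corneal endothelial membrane. Col8a1 had 0 and 0 bp in KO, against 2381 and 946 bp in WT. Col8a2 had 0 and 0 bp in KO, against 731 and 325 bp in WT, in peaks inside the gene, 14434 bp or more from its start. Both lacked any KO peak, and both WT values of Col8a2 were small.

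Col14a1, a chain that binds the surface of fibrils, had 0 and 0 bp in KO, against 1620 and 543 bp in WT. Col19a1, a basement membrane zone collagen, had 0 and 0 bp in KO, against 807 and 1014 bp in WT. Col18a1, the basement membrane collagen whose end is cleaved off as endostatin, had 0 and 0 bp in KO, against 1257 and 1059 bp in WT, at -10 to 1246 bp from its start. All 3 lacked a KO peak, and Col18a1 lies on chromosome 10, where KO pileup was the higher.

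Col26a1 had 0 and 0 bp in KO, against 651 and 629 bp in WT, inside the gene. In their own lists the best WT peaks of these 6 genes stood at a median percentile of 28.8 in WT replicate 1 and 9.21 in WT replicate 2 by -log10 q, the authors' measure of confidence. The 13 genes with peaks in all 4 libraries stood at 55.4 and 51.4 in the KO libraries, against 61.7 and 59.5 in the WT libraries. The median WT peak of the WT-only genes thus stood lower in both WT lists. The groups were formed by which peaks passed a q cutoff, so this order can follow from the grouping alone and supports nothing further. Where each H3K4me3 list was cut to the length of the shortest, 1 gene was WT-only by -log10 q (Col18a1, 2.27%, against 1.85% of all genes) and 0 by pileup, the number of fragments over the summit (against 1.56%). With only peaks of -log10 q from 10 upward, 15 genes were WT-only (34.1%, against 36.7% of all genes), and 0 genes kept peaks in all 4 libraries (against 4.27%). That limit was reached by 14.5% and 20.3% of H3K4me3 peaks in KO libraries, against 82.5% and 74.1% in WT libraries. H3K4me3 pileup relative to the other autosomes also differed on chromosome 4 (0.812 and 0.813 in KO, against 0.878 and 0.878 in WT), 16 (0.934 and 0.943 in KO, against 0.890 and 0.876 in WT) and 19 (1.01 and 1.03 in KO, against 1.15 and 1.13 in WT). Without the genes of chromosomes 4, 10, 16 and 19, 3 genes were WT-only (Col14a1, Col19a1 and Col26a1). Col8a2, Col18a1 and Col8a1 lie on chromosomes 4, 10 and 16 and were thus not scored.

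Rank by pileup and rank by -log10 q differed at several fibrillar genes. The Col1a2 peak stood at the 85.7 and 91.5 percentile of pileup in the WT libraries and at the 25.6 and 26.3 percentile of -log10 q, with 2.43 and 2.79 fold enrichment over the local background. Col5a1 stood at the 97.1 and 92.4 percentile of pileup in WT and at the 61.7 and 45.3 percentile of -log10 q, with 4.07 and 3.72 fold enrichment. Type 6 peaks combined both. Col6a1 stood at the 92.7 and 86.3 percentile of pileup in WT and at the 89.9 and 82.3 percentile of -log10 q, with 7.66 and 6.88 fold enrichment. The Col1a2 peak of KO replicate 1 likewise stood at the 90.2 percentile of pileup and the 21.3 percentile of -log10 q. With lists of equal length by -log10 q no WT peak remained at Col1a2 and its KO minus WT difference turned to 126 bp, whereas by pileup its KO values stayed the lower.

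H3K4me1 was called over every one of the 44 collagen genes in at least 1 library, mostly in peaks inside the genes. Peaks were present in all 4 libraries at 36 genes (81.8%), against 30.6% of all genes and 84.2% of the long genes. WT-only genes numbered 0 (against 2.77% of all) and KO-only genes 0 (against 1.63%), and 8 had peaks in 1 to 3 libraries in no genotype pattern. Covered length summed to 139 and 113 kb in KO, against 135 and 120 kb in WT, or 126 ± 18.8 kb in KO and 128 ± 10.5 kb in WT (SD, n = 2 each), a difference smaller than the spread within either genotype. The median density was 3.22 peaks per 100 kb of gene, against 1.47 in all genes and 2.76 in the long ones.

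**Figure D4:**
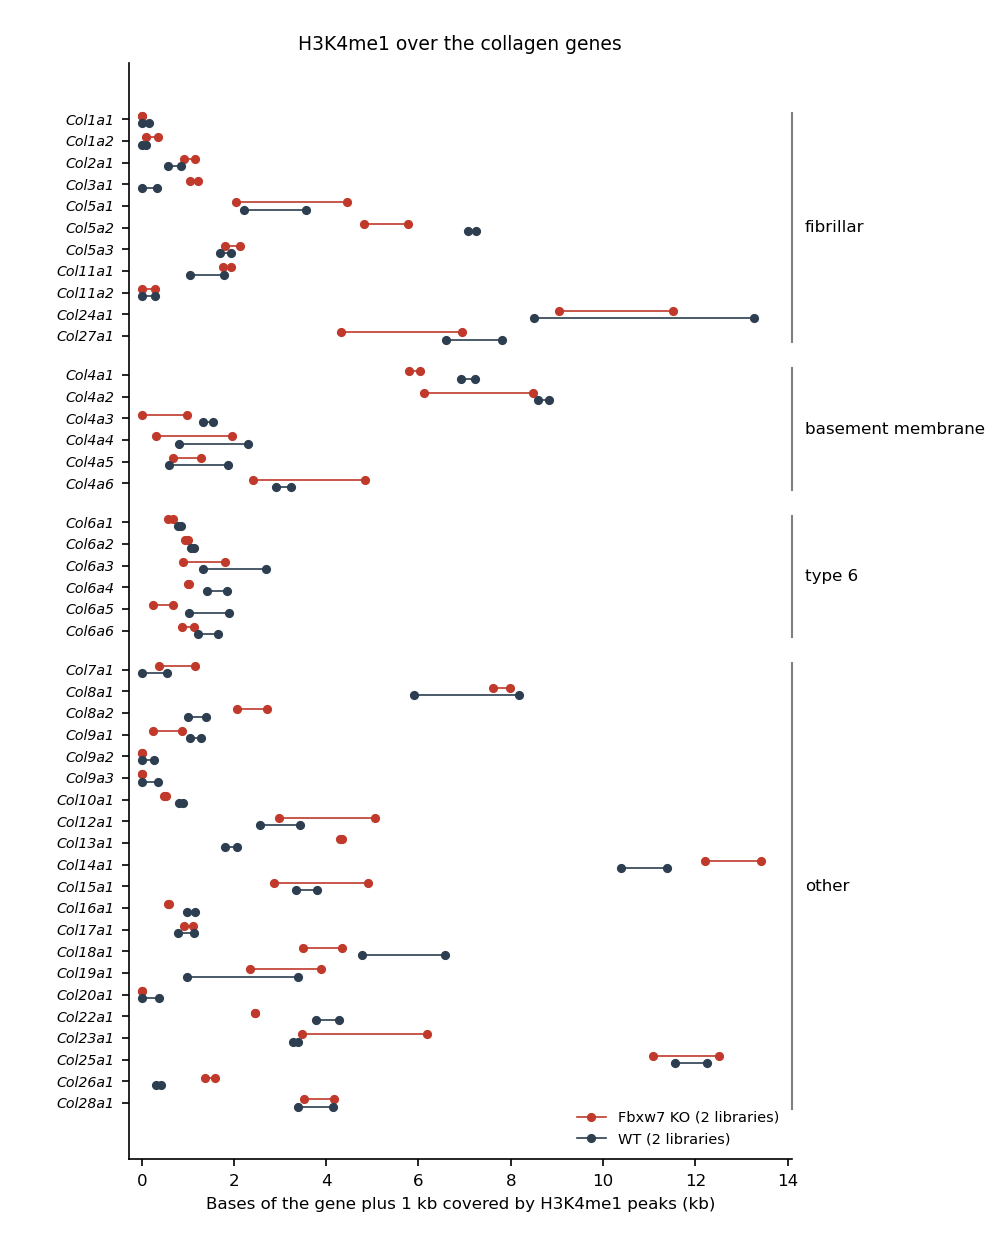
H3K4me1 over all 44 collagen genes, drawn as bases (kb) of the gene plus 1 kb covered by peaks, 1 point per library, KO above WT in each row. KO points lie left of WT points at 14 genes, 5 of them of type 6, and right of them at 8 genes, such as Col13a1, Col26a1 and Col3a1.

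The longest H3K4me1 coverage was over Col14a1, with 13426 and 12220 bp in KO, against 11377 and 10389 bp in WT. Col25a1, a membrane-bound collagen of neurons and muscle, had 12525 and 11074 bp in KO, against 11561 and 12248 bp in WT. Col24a1, a minor fibrillar chain, had 11509 and 9039 bp in KO, against 13281 and 8510 bp in WT. The groups of Col25a1 and Col24a1 overlapped, and those of Col14a1 did not. Col4a2 had 6121 and 8488 bp in KO, against 8595 and 8822 bp in WT, and Col8a1 had 7988 and 7618 bp in KO, against 8173 and 5903 bp in WT.

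Covered bases of H3K4me1 were lower in both KO than in both WT libraries at 14 genes (31.8%), against 15.3% of all genes, and higher at 8 (18.2%), against 7.31%. Among genes with a peak in all 4 libraries the lower share was 36.1% of 36 collagen genes, against 32.7% of all and 37.8% of long genes, and the higher share 19.4%, against 14% and 15.9%. Read against genes with peaks in all 4 libraries, neither share stands far from the background. The counts, which can only stay or rise when a library is left out, moved with single libraries. The lower count was 21 without KO replicate 1 and 22 without WT replicate 2, and the higher count 18 without KO replicate 2 and 17 without WT replicate 1. Of 14 lower genes, 9 remained when the genes of chromosomes 4, 10, 16 and 19 were left out. Those chromosomes hold 5, 5, 1 and 1 of the 44 collagen genes, so fewer genes were scored.

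H3K4me1 coverage was lower in KO at 5 of 6 type 6, 5 of 21 other, 3 of 6 basement membrane and 1 of 11 fibrillar genes, and the difference between classes was not tested. Type 6 genes summed to 5.44 ± 0.836 kb in KO and 8.46 ± 1.05 kb in WT (SD, n = 2 each). Col6a1 had 679 and 579 bp in KO, against 795 and 849 bp in WT. Col6a2 had 996 and 947 bp in KO, against 1065 and 1143 bp in WT. The groups of both lay close together without overlap, on the chromosome where KO pileup was higher. Col6a5 had 680 and 248 bp in KO, against 1882 and 1024 bp in WT, without any H3K4me3. Col6a4 had 998 and 1034 bp in KO, against 1422 and 1839 bp in WT, and Col6a6 had 871 and 1135 bp in KO, against 1220 and 1652 bp in WT. Col6a3, with 1802 and 901 bp in KO, against 1333 and 2690 bp in WT, was the type 6 gene whose groups overlapped.

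Fibrillar genes summed to 30.8 ± 6.76 kb in KO and 32.5 ± 5.29 kb in WT, and basement membrane genes to 19.5 ± 1.29 kb in KO and 23.1 ± 1.61 kb in WT. The 21 other genes summed to 70.1 ± 9.95 kb in KO and 63.7 ± 4.67 kb in WT. Col5a2 had 5762 and 4812 bp in KO, against 7249 and 7063 bp in WT, and its groups did not overlap. Col5a1, with 4440 and 2038 bp in KO, against 3571 and 2214 bp in WT, and Col5a3, with 2140 and 1815 bp in KO, against 1935 and 1705 bp in WT, had overlapping groups. Col4a1 had 5799 and 6040 bp in KO, against 7225 and 6923 bp in WT. Its groups did not overlap, nor did those of its neighbour Col4a2.

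Of the 8 genes with higher KO coverage of H3K4me1, 5 (Col2a1, Col8a2, Col13a1, Col14a1 and Col26a1) had no H3K4me3 peak in either KO library. Of all 44 collagen genes only 18 had an H3K4me3 peak in a KO library, so most lacked one. Col13a1, a transmembrane collagen of cell adhesions, had 4346 and 4298 bp in KO, against 1797 and 2065 bp in WT, with 2 KO-only regions 130039 to 130747 bp and 119264 to 119782 bp after its start. It lies on chromosome 10, and the part of the pileup shift there in its value was not tested. Col26a1 had 1597 and 1369 bp in KO, against 318 and 419 bp in WT. Col8a2 had 2726 and 2059 bp in KO, against 996 and 1394 bp in WT. Col26a1 and Col8a2 were the WT-only H3K4me3 genes with their peaks inside the gene, and there the H3K4me1 region in all 4 libraries overlapped the WT H3K4me3 region.

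Type 1 and type 3 genes had little H3K4me1 in their windows. Col1a1 had 0 and 0 bp in KO, against 0 and 160 bp in WT. Col1a2 had 344 and 97 bp in KO, against 83 and 13 bp in WT, and Col3a1 had 1219 and 1037 bp in KO, against 0 and 331 bp in WT. The windows end 1 kb before the start, and further peaks lay beyond. At Col3a1 peaks spanned -2742 to -1627 bp and -2193 to -1927 bp from the start in KO, against -2170 to -1246 bp and -2240 to -1799 bp in WT, so all 4 libraries held H3K4me1 outside the scored window. At Col1a2 a region from -1682 to -904 bp was likewise held by all 4 libraries and fell mostly outside the window. Taken whole, that region held 704 and 279 bp in KO, against 465 and 258 bp in WT, with overlapping groups. Further Col1a2 peaks began at -3348 and -2390 bp in the KO libraries. In WT they began at -3214 and -2224 bp and at -3221 and -2234 bp. The higher KO coverage of Col1a2 thus rests on the scored window. The remaining genes with higher KO coverage were Col2a1, the cartilage fibril chain, with 1160 and 909 bp in KO, against 565 and 851 bp in WT, and Col23a1, a transmembrane collagen, with 6190 and 3478 bp in KO, against 3276 and 3387 bp in WT.

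Split into merged regions, the collagen genes held 331 H3K4me1 regions, 92 of them in all 4 libraries (27.8%, against 28.7% of regions genome-wide). WT-only regions numbered 15 (4.53%, against 6.63%), KO-only regions 20 (6.04%, against 5.37%), and 122 occurred in a single library. The 35 H3K4me3 regions over collagen genes comprised 12 in all 4 libraries (34.3%, against 46.8%), 10 WT-only (28.6%, against 21.7%) and 0 KO-only (against 0.056%). Of the H3K4me1 regions 308 of 332 gene and region pairs lay inside a gene, and of the H3K4me3 regions 24 of 36 lay at a gene end.

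Within 1 kb of a start site H3K4me1 was called at 9 and 10 of 35 genes in KO libraries, against 6 and 8 in WT libraries. The share was 25.7% and 28.6% in KO and 17.1% and 22.9% in WT, against 11.2% and 8.76% in KO and 10.7% and 8.97% in WT for all genes. It was present there in all 4 libraries at Col1a2, Col5a1, Col6a1, Col6a2 and Col10a1, 14.3% of 35, against 2.29% of all genes. Of 14 regions near a start 11 had their centre before it, at a median of -0.476 kb. The regions spanned -2014 to -488 bp at Col5a1, -1101 to -121 bp at Col6a1 and -1190 to -223 bp at Col6a2. These regions lay upstream of the start, and H3K4me3 mostly downstream of it. Col6a2 also had H3K4me1 from 1984 to 2757 bp after the start in all 4 libraries, and the H3K4me3 region of Col5a1 began at -673 bp, inside its H3K4me1 region. For shared bases, the peaks of both libraries of a mark and genotype were pooled, so the marks can stem from different replicates. The marks fell on the same bases at 1 of 18 genes in KO (1.12% of H3K4me3 bases). In WT they did so at 10 of 26 genes (8.20%). The genotypes are not compared on these shares, since pooled H3K4me3 spanned 15.962 kb in KO and 49.893 kb in WT. The share over all genes was not computed. Col26a1 shared 90.9% of its WT H3K4me3 bases with H3K4me1, Col8a2 42.8% and Col4a2 30.8%. The Col8a2 value includes a 258 bp H3K4me3 region of WT replicate 1, where H3K4me1 was called in WT replicate 2 but not in WT replicate 1.

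CpG content was set beside H3K4me3 as the ratio of observed to expected CpG in the 300-base RefSeq promoter, which ends 50 bases after the start. The median was 0.587 in the 11 matched collagen genes with H3K4me3 in all 4 libraries, against 0.794 in all genes of that pattern. It was 0.608 in 4 WT-only collagen genes, against 0.662, and 0.363 in 14 without H3K4me3, against 0.196. The pattern was called over the gene plus 1 kb, not at the promoter itself. Col23a1 is among the 11 only by its region near Phykpl, and Col8a2 is among the 4 with peaks only inside the gene. Of the 11 genes, 5 (45.5%) lay under 0.4, against 9.41% of all genes with H3K4me3 in all 4 libraries, a comparison given without a test. They were Col6a1 (0.134), Col6a3 (0.139), Col6a2 (0.253), Col24a1 (0.270) and Col11a1 (0.332), and the sequences of Col6a1 and Col6a3 are printed above. Col3a1, with no CpG in the window, had H3K4me3 in both WT libraries and 1 KO library. The shared Col4a1 and Col4a2 promoter was CpG-rich (0.902 and 0.818). Col13a1 had a ratio of 0.837 and no H3K4me3 peak in any library. In the 300-base windows, GGGCGG was found in 62.9% of the 35 collagen promoters, against 46.9% of all 17274, CCAAT in 34.3%, against 39.6%, and TATAAA in 14.3%, against 13.4%.

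**Figure D5:**
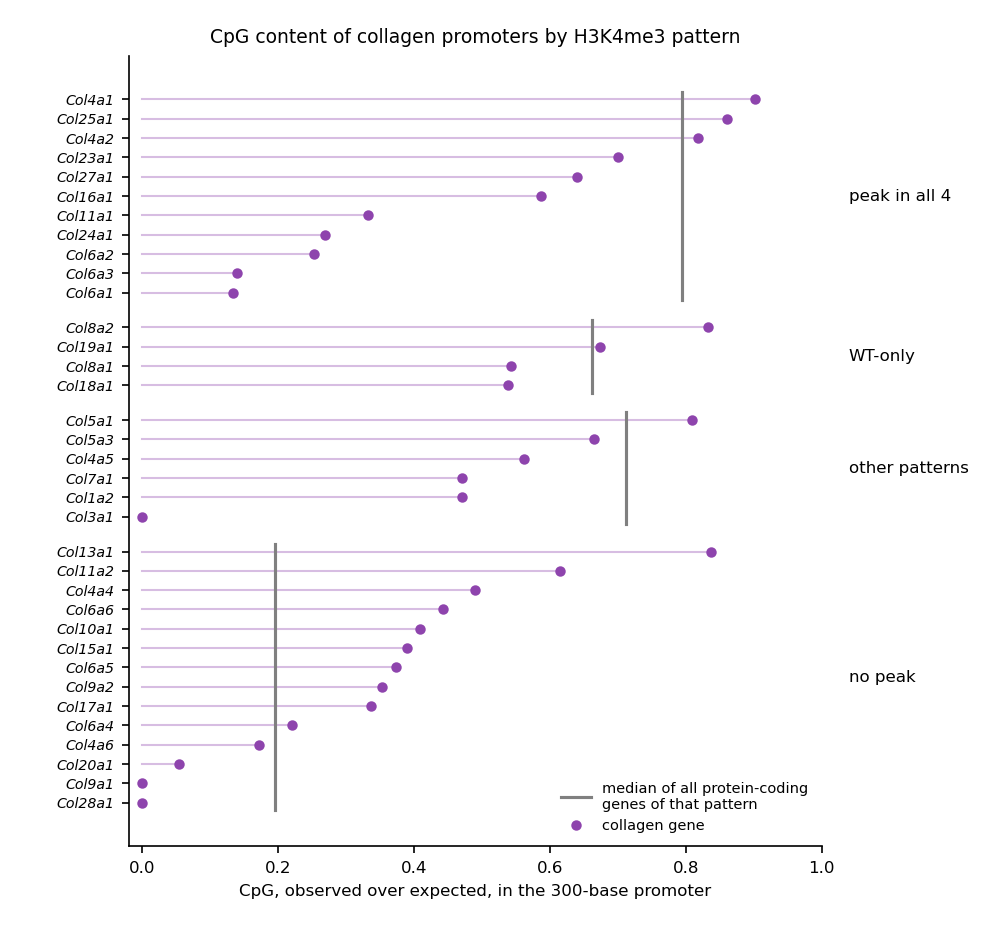
Observed over expected CpG (horizontal axis) in the RefSeq promoters of 35 collagen genes, grouped by their H3K4me3 pattern over the gene plus 1 kb. The grey line is the median of all protein-coding genes of that pattern. The type 6 chains Col6a1, Col6a2 and Col6a3 have peaks in all 4 libraries at ratios of 0.134 to 0.253, and Col13a1 has no peak at 0.837.

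MLL4 lists were short, with 49 and 40 peaks in KO, against 60 and 69 in WT, and they touched 18 and 8 genes in KO, against 25 and 26 in WT. An MLL4 peak was found over 0 of the 44 collagen genes in each of the 4 libraries, so no MLL4 peak passed the authors' threshold there. These libraries held 5743404 and 4435103 fragments in KO, against 5629819 and 5838305 in WT, while H3K4me3 KO replicate 1, with 5519477 fragments, gave 10397 peaks. What sets the length of the MLL4 lists was not tested.

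The genes that modify, secrete, cleave, cross-link and bind collagen were counted alongside, 52 genes in 4 lists. H3K4me3 was present in all 4 libraries at 33 (63.5%, against 41.8% of all genes) and absent from all at 3 (Loxl2, Fmod and Itga10). Of the 49 with a peak in any library, 33 had it in all 4, against 68.1% of all genes with a peak. Covered bases were lower in both KO libraries at 46 (88.5%, against 57.4% of all genes and 93.5% of genes with any peak) and higher at 0. By list, it was present in all 4 libraries at 16 of 21 chain processing genes, 5 of 14 cleavage and cross-linking genes, 6 of 9 fibril-associated genes and 6 of 8 receptors. Serpinh1, the collagen chaperone of the endoplasmic reticulum, had 1135 and 892 bp in KO, against 2957 and 2827 bp in WT. Lox, which cross-links fibrils, had 254 and 252 bp in KO, against 2781 and 2058 bp in WT. Bmp1, the C-terminal procollagen protease, had 0 and 805 bp in KO, against 3035 and 3054 bp in WT. The groups of these 3 genes did not overlap, and Bmp1 lacked a peak in 1 KO library.

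WT-only genes of these lists were Tll2, Adamts14, Tgm2 and Lum, 7.69% of 52, against 7.73% of all genes. Lum, a proteoglycan that binds fibrils, had 0 and 0 bp in KO, against 1070 and 968 bp in WT. Adamts14, an N-terminal procollagen protease, had 0 and 0 bp in KO, against 1515 and 1390 bp in WT. For H3K4me1, 28 of the 52 had peaks in all 4 libraries (53.8%, against 30.6% of all genes). Of the 45 with an H3K4me1 peak in any library, 28 had it in all 4, against 51.8% of all such genes. Coverage was lower in KO at 10 (19.2%, against 15.3% of all genes and 26% of genes with any H3K4me1 peak). It was higher at 11 (21.2%, against 7.31% and 12.4%), and neither difference was tested. Sparc, a collagen-binding matrix protein, was the 1 KO-only gene (1.92%, against 1.63%), with 967 and 782 bp in KO, against 0 and 0 bp in WT.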

How the data were processed

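Peak lists of 12 Cut & Run libraries (3 antibodies, 2 genotypes, 2 libraries each) were used. Per the submitters' processing notes the build was mm10 and the tools included Bowtie2, SAMtools 1.5, bedtools, MACS2, deepTools and HOMER 4.10. Per the file headers, MACS2 2.1.0.20150731 called peaks in each library on its own, with a q cutoff of 0.01, a local background over 10000 bp and no control. Duplicates were limited to 1 fragment per position, or 2 in the H3K4me1 lists and in H3K4me3 WT replicate 1, per the file headers. The deposited lists give each peak's pileup signal, its -log10 p and q values and its fold enrichment ratio, the authors' own values. They served here for ranking and filtering inside one list and for describing single peaks. The same q cutoff passes weaker sites in a deeper library, so a missing peak does not show that a mark was absent.

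Gene spans and start sites came from RefSeq tables of GRCm38.p6. They hold no start site for 9 collagen genes and no exons, so introns and exons were not told apart. A gene held a peak when at least 1 bp lay in its span plus 1 kb, and values are covered bases, computed with Python 3.11.15, numpy 2.4.6 and pandas 2.3.3, and tested on simulated data. Counts of collagen genes are set beside the same share over all protein-coding genes, without a test of the list. Single genes were tested with an exact two-sided permutation test (smallest p 0.333). Named were the chains of types 1, 3, 5 and 6, every WT-only or KO-only gene, the 5 with the most covered bases of each mark, genes with MLL4 and genes that share a peak. Other genes were named after their values were seen. The collagen genes and gene lists were chosen with earlier results of these data known. Groups and replicate numbers came from sample titles.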

Additional observations from a re-analysis of the deposited data

How the results depend on the processing

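Of 219 values for 24 collagen genes of H3K4me3, 3 reversed, and of 193 for 22 genes of H3K4me1, 5 did. These genes had non-overlapping groups, so leaving out 1 library or some chromosomes could not reverse a direction. The values of those settings are among the 219 and 193 and say nothing on robustness. Not counted are values where a setting kept no peak at a gene or gave a difference of 0. A difference that vanished is thus not among the reversals. With H3K4me3 lists of equal length by -log10 q, KO minus WT turned to 126 bp at Col1a2 and 192.5 bp at Col5a3, and by pileup (an alternative chosen after seeing the data) to 192.5 bp at Col5a3. For H3K4me1 it turned to 249.5 bp at Col18a1 with -log10 q of at least 10, and within 1 kb of gene ends to 83.5 bp at Col5a2, -149.5 bp at Col13a1, 109.5 bp at Col4a1 and 67.5 bp at Col4a2. WT-only H3K4me3 genes numbered 15 with -log10 q of at least 10, 1 with equal lists by -log10 q, 0 by pileup and 3 without chromosomes 4, 10, 16 and 19, against 6 as reported, and genes with H3K4me3 in all 4 libraries numbered 0 at the stricter q. For H3K4me1 the genes with peaks in all 4 libraries were 9 within 1 kb of gene ends, 5 within 1 kb of start sites and 6 at the stricter q, the WT-only genes 3 at the stricter q, and the KO-only genes 1 with equal lists by either rank. Genes with lower KO H3K4me1 numbered 6 at the stricter q, 3 at gene ends and 9 without the 4 chromosomes, and those with higher KO H3K4me1 numbered 1 at the stricter q and 3 at gene ends. The cause of these moves was not tested, apart from the fewer peaks or genes that each alternative keeps. For counts at gene ends, without the 4 chromosomes or, for H3K4me1, at the stricter q, the share over all genes was not computed. Leaving out 1 library in turn gave 6 to 9 WT-only and 13 to 16 all-library genes and 24 to 26 lower genes for H3K4me3. For H3K4me1 it gave 0 to 2 WT-only, 0 to 2 KO-only, 36 to 38 all-library, 14 to 22 lower and 9 to 18 higher genes, the reduced genotype then resting on 1 library. Such counts can only stay or rise when a library is left out. Replicate numbers share only a number here. With the replicate block, KO was below WT in both pairs at 24 genes and above at 0 for H3K4me3, and below at 16 and above at 12 for H3K4me1. Presence calls depend on depth, and H3K4me3 WT replicate 1 was the deepest of its mark.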
